A study of Mus musculus with 6 samples.

Results

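The Rgs genes described here are 10 mouse regulators of G-protein signalling, Rgs2, Rgs3, Rgs4, Rgs5, Rgs8, Rgs10, Rgs12, Rgs16, Rgs17 and Rgs19. Every non-control array probe whose transcript belongs to one of these symbols was taken, which gave 21 of the 56593 probes kept and 10 of the 22903 genes named. The symbols were chosen by the differences between knockdown and control on these same arrays, as known from earlier results, so the differences of their probes are a description and no test is read from them. The arrays measured RNA of a glioblastoma stem cell line from mouse. The line came from brain tumours that had been induced in mice with the SB transposon, and it grows as neurospheres in serum-free medium with B27, N2, EGF and bFGF. The 3 knockdown arrays hold cells transduced with a lentiviral shRNA against Ggct, which encodes gamma-glutamylcyclotransferase, an enzyme of glutathione breakdown. The 3 control arrays hold cells of the same line transduced with a lentiviral non-target shRNA. Sample titles name 1 line and 1 hairpin, which limits these cells as a model, since off-target effects of the hairpin and loss of Ggct cannot be told apart.

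Each array is a 1-colour Agilent array, and a level is given here as the log2 of a probe's processed signal relative to the 75th percentile of its array, so that 0 is a fairly bright probe and each unit is a doubling of signal. Levels of different probes are not comparable with each other. Differences are knockdown minus control on this log2 scale, with their standard error (SE). Between 54.5% and 56.8% of an array's probes were well above background, none (0) was saturated, and precision is limited by how few arrays there are. All 6 arrays lay on 1 slide with 1 scan day. The hairpin's target was lower on every knockdown array: Ggct had levels of 0.22, 0.91 and 0.70 on the knockdown arrays and 3.32, 3.72 and 3.70 on the control arrays, a difference of -2.97 ± 0.20 (SE; limma adjusted p = 0.00314), or 12.7% of control. Knockdown array 1 stood apart on the first principal component of all genes, at 46.6 against 9.1 and 15.4 for knockdown arrays 2 and 3, and -25.6, -30.5 and -15.0 for the control arrays. Results that rest on it are given without it as well. The labels do not say whether arrays of a group came from separate cultures, and the p-values below reflect only how far these arrays differ among themselves, which may be technical.

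Heterotrimeric G proteins carry signals from receptors of the seven-helix class into the cell, and stay active while their alpha subunit holds GTP. RGS proteins bind the active alpha subunit through a shared domain and speed its GTP hydrolysis, which ends the signal sooner. Members differ in which alpha subunits they act on and in what else they carry: the R4 proteins are mostly small, most R12 proteins have further domains, and the RZ proteins act on the Gi class, Gz included. In brain they are best known from neurons, and several are also induced by growth factors or other stimuli.

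Of the 10 members 8 could be tested, and 3 of these 8 passed the threshold, all higher in the knockdown: Rgs8, Rgs3 and Rgs2. Over all 14149 genes tested, 7.41% passed, 4.57% higher. All 3 belong to the R4 subfamily. No member passed without control array 1 or without knockdown array 3. Rgs8 differed most, by 2.41 ± 0.28 (SE) at its brighter probe, which is 5.31-fold. Rgs3 was 1.80-fold and Rgs2 1.61-fold higher at the probe used for the gene. Rgs16, Rgs10, Rgs12, Rgs17 and Rgs19 were measured but did not pass the threshold, an adjusted p below 0.05 over all genes. Rgs4 and Rgs5 were not well above background on any array. Of the 6 other tested genes with an Rgs name, 1 passed, the R12 gene Rgs14, also higher, as described below. The Rgs14 call was lost in 7 of 14 alternative settings, the day as a block among them. No contrast of subfamilies is read from these calls.

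Of the 10 genes, 8 had a probe well above background on at least 3 arrays and could be tested, and 3 of these 8 passed, all higher. Among all 14149 genes tested, 7.41% passed, 4.57% higher and 2.84% lower. Since the members were chosen with this contrast known, nothing is read from the 2 shares side by side. At an unadjusted p below 0.05 the count was 6 of 8 members and 3507 of the 14149 genes tested. The median difference of the 8 members was 0.28, beside 0.02 over all genes tested. It was 0.17 without control array 1 and 0.13 without the filter on dim probes, which adds Rgs4 and Rgs5. By subfamily, 3 of 4 tested R4 members passed and 0 of 4 tested members of R12 and RZ by limma, of which 2 had an unadjusted p below 0.05. This split covers only the members, chosen with the contrast known. Outside them the R12 gene Rgs14 passed, higher, so no contrast of subfamilies is read from it. With the shared day of the titles as a block, 558 genes or 3.94% passed, and 2 members, Rgs3 and Rgs8. Leaving out single arrays moved the count more: no member passed without control array 1 or without knockdown array 3, 1 passed without control array 2 (Rgs8), and 2 passed (Rgs3 and Rgs8) without knockdown array 1, knockdown array 2 or control array 3. These arrays are bulk RNA, in which fewer cells of a type and less RNA per cell cannot be told apart.

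Across single probes, 19 of the 21 were well above background on all 6 arrays and the other 2, for Rgs4 and Rgs5, on none. The knockdown and control arrays did not overlap for 12 of the 19, with 8 higher and 4 lower in the knockdown. Over all 31805 probes tested, 26.9% had groups that did not overlap, 14.5% higher and 12.4% lower. In a fit over those probes, 2 member probes passed, the brighter Rgs8 probe and 1 Rgs3 probe, where 1.75% of all probes did. With the day as a block, 0% of all probes passed in that fit.

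**Figure D1:**
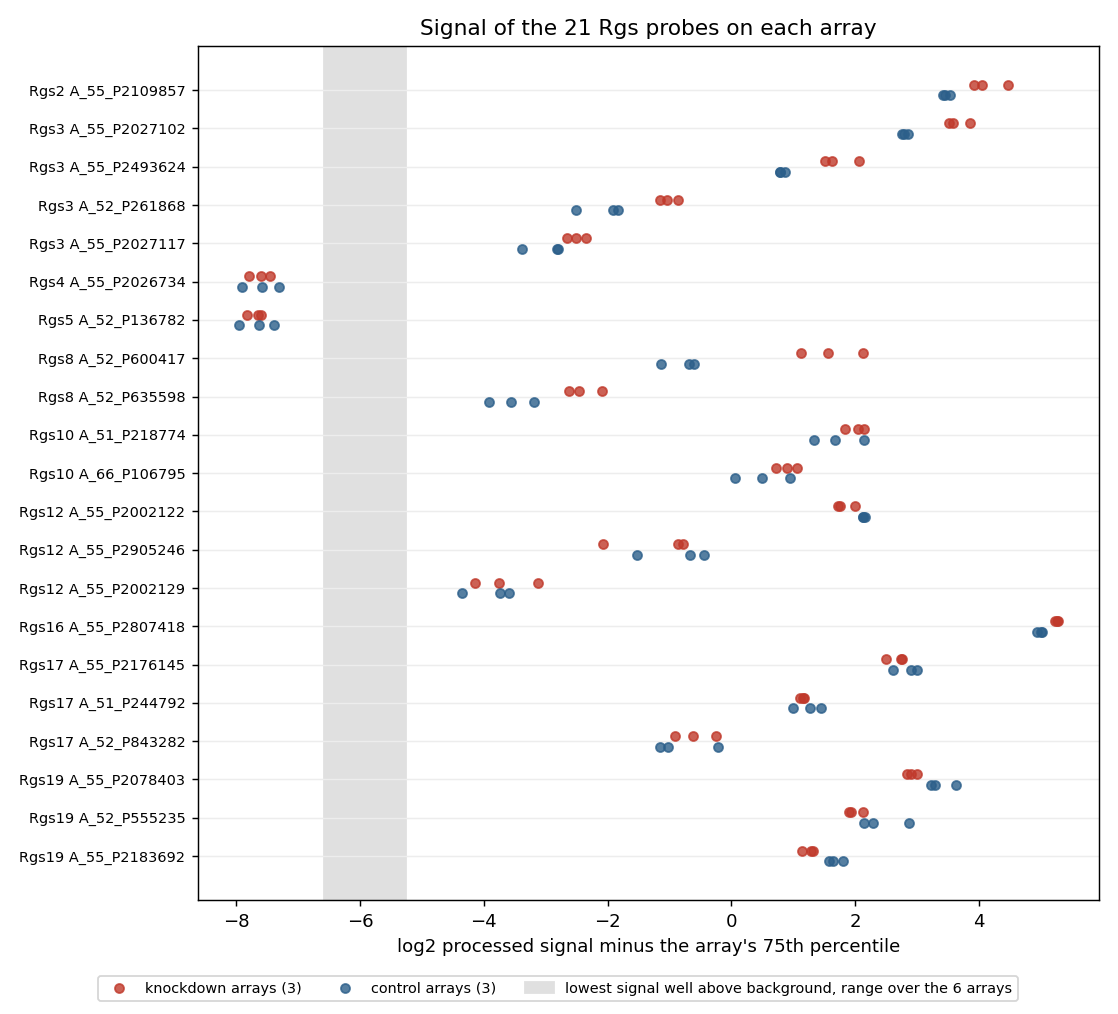
Level of each of the 21 Rgs probes on each array (x axis, log2 processed signal minus the array's 75th percentile; 1 row a probe), with the 3 knockdown arrays in red and the 3 control arrays in blue. Grey marks the range over the arrays of the lowest signal well above background; the Rgs4 and Rgs5 probes lie left of it, and both Rgs8 probes and all 4 Rgs3 probes have their knockdown arrays to the right of their control arrays.

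Rgs8, on chromosome 1, encodes a small R4 protein that acts on the Gi and Gq classes and is best known from cerebellar Purkinje cells. The brighter of its 2 probes, A_52_P600417, had levels of 2.12, 1.13 and 1.56 on the knockdown arrays and -0.60, -1.13 and -0.69 on the control arrays. Every knockdown array lay above every control array, and the gap between the groups was wider than the range within either. The difference was 2.41 ± 0.28 (SE), with a 95% interval of 1.76 to 3.06. Within the 3 pairs of arrays that share a day, it was 2.72, 2.26 and 2.24. Without knockdown array 1, the highest of the 6, it was 2.15.

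The dimmer Rgs8 probe, A_52_P635598, is assigned to the same transcript. It had levels of -2.10, -2.62 and -2.47 on the knockdown arrays and -3.56, -3.92 and -3.19 on the control arrays. Again the groups did not overlap. The difference was smaller, 1.16 ± 0.23 (SE; 95% interval 0.62 to 1.70), or 2.23-fold, and the pairs gave 1.46, 1.29 and 0.72. Without knockdown array 1 the dimmer probe differed by 1.01. On each array the brighter probe exceeded the dimmer one by 3.75, 4.03 and 4.22 (lowest, median and highest knockdown array), against 2.50, 2.78 and 2.96 on the control arrays, so the probes moved apart in the knockdown by more than the range within either group. This is the largest spread between probes of 1 member, 1.25 log2 units, against 0.05 to 0.58 for the other 5 members with more than 1 probe above background. After a normexp background correction the dimmer probe's difference was 0.56.

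Because the title of the series names c-Jun and Notch1, the start regions of the 3 genes that passed are shown, with matches to 4 short motifs. These are TGANTCA (bound by AP-1, the factor family of c-Jun), TGACGT (the core of the CRE, a cyclic-AMP element), TGGGAA (bound by RBPJ, the DNA-binding partner of Notch) and TTCNNNGAA (bound by STAT factors), each read on both strands. Sequences run 5′ to 3′ from 250 bases before the annotated start to 50 bases after it and are from RefSeq, build GRCm38.p6, which lists 3 starts for Rgs8, 2 for Rgs3 and 1 for Rgs2. Capitals mark a motif match.
Rgs8 promoter 1, chr1:153652787-153653086 plus strand: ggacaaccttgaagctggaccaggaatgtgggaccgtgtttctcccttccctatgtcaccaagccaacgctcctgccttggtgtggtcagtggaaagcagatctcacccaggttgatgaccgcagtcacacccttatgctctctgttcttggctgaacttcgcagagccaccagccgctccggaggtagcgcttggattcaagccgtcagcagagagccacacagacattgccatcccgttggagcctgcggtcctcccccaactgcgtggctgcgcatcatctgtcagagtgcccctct
Rgs8 promoter 2, chr1:153665024-153665323 plus strand: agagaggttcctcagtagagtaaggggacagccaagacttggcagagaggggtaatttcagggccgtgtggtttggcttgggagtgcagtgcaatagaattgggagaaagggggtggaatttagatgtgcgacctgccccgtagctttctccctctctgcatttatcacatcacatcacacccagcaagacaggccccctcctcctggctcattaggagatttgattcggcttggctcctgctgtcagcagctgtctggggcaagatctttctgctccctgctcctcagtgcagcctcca
Rgs8 promoter 3, chr1:153665423-153665722 plus strand: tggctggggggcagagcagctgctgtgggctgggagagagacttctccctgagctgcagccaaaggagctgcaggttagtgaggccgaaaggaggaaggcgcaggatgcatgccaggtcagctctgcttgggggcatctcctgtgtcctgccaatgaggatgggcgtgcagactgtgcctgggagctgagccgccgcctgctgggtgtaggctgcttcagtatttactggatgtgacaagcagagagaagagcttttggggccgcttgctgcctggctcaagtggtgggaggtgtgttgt
Rgs3 promoter 1, chr4:62559597-62559896 plus strand: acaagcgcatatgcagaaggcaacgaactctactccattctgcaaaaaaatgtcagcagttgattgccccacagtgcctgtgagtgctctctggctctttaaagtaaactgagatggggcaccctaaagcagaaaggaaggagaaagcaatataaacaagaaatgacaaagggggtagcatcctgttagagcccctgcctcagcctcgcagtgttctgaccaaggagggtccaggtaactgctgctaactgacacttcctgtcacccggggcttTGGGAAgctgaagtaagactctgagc
Rgs3 promoter 2, chr4:62619422-62619721 plus strand: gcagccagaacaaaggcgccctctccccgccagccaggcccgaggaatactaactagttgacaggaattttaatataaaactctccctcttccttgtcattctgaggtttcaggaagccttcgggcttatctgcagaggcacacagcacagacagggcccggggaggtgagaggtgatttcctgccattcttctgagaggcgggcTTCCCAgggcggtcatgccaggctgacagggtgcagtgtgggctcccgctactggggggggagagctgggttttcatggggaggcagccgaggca
Rgs2 promoter 1, chr1:144004100-144004399 minus strand: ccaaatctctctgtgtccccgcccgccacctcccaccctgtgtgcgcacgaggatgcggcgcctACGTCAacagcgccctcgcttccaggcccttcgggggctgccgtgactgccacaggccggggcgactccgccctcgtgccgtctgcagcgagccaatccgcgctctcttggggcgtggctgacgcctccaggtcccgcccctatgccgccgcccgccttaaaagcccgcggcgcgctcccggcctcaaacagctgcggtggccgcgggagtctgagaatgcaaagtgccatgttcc
None of the 4 motifs occurs in the 3 Rgs8 windows. Both Rgs3 windows hold TGGGAA or its reverse complement, with the first base at position 25 after the start in promoter 1 and at -45 in promoter 2. The Rgs2 window holds the reverse complement of TGACGT at -186. Over the 16 start regions of all 10 members, TGGGAA was found in 4 (Rgs3 in both, Rgs12 and Rgs19), TGANTCA in 2 (Rgs12 and Rgs17), TGACGT in 1 and TTCNNNGAA in 0. Of all 32851 start regions in the table, 25.6% hold TGGGAA, 7.81% TGANTCA, 7.51% TGACGT and 8.30% TTCNNNGAA. No 2 matches overlapped in the member regions. A match describes letters only and shows no binding.

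Rgs3, on chromosome 4, encodes an R4 protein with long and short forms that acts on the Gi and Gq classes. All 4 of its probes were higher on every knockdown array than on any control array. Probe A_55_P2027102, used for the gene, had levels of 3.86, 3.51 and 3.59 on the knockdown arrays and 2.79, 2.75 and 2.86 on the control arrays. Its difference was 0.85 ± 0.14 (SE; 95% interval 0.52 to 1.18), or 1.80-fold, with pairs at 1.06, 0.76 and 0.73. Without knockdown array 1, again the highest of the 6, it was 0.75.

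Probe A_55_P2493624 for the same Rgs3 transcript had levels of 2.07, 1.63 and 1.52 on the knockdown arrays and 0.87, 0.79 and 0.79 on the control arrays. Its difference was 0.92 ± 0.17 (SE), or 1.90-fold. Probe A_52_P261868, also for that transcript, had levels of -1.15, -0.87 and -1.04 on the knockdown arrays and -1.83, -1.90 and -2.51 on the control arrays, and differed by 1.06 ± 0.21 (SE), or 2.09-fold. The 3 probes of this transcript thus ran from 1.80-fold to 2.09-fold. The fourth probe, A_55_P2027117, is assigned to another Rgs3 transcript. It had levels of -2.52, -2.35 and -2.66 on the knockdown arrays and -3.38, -2.81 and -2.79 on the control arrays, and differed by 0.49 ± 0.20 (SE), or 1.40-fold. Its pairs ran unevenly, at 0.86, 0.46 and 0.14, and its difference was 0.29 without control array 1 and 0.21 after a normexp background correction. Whether the transcripts changed unequally was not tested.

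Rgs2, on chromosome 1, encodes a small R4 protein that acts mainly on Gq and is known as an early response gene of many cell types. Its 1 probe, A_55_P2109857, had levels of 4.48, 3.92 and 4.05 on the knockdown arrays and 3.41, 3.44 and 3.53 on the control arrays. The groups did not overlap, and the knockdown arrays spread more widely than the control arrays. Its difference was 0.69 ± 0.17 (SE; 95% interval 0.28 to 1.09), or 1.61-fold, with pairs at 1.06, 0.48 and 0.53. Of the 3 calls this was the least firm: Rgs2 did not pass with the day as a block, nor when any 1 of the 6 arrays was left out, and without knockdown array 1 its difference was 0.53.

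Rgs16, the other R4 member measured, acts on the Gi and Gq classes. Its probe, A_55_P2807418, had levels of 5.27, 5.23 and 5.27 on the knockdown arrays and 4.94, 5.00 and 5.02 on the control arrays. The groups did not overlap and were tight, but the difference was small, 0.27 ± 0.11 (SE; 95% interval -0.003 to 0.54), and the gene did not pass. Rgs16 is the next protein-coding gene to Rgs8 on chromosome 1 in the RefSeq gene order, with 0 protein-coding genes between them, so neighbours differed by 0.27 at Rgs16 and 2.41 at Rgs8. That unequal size was not tested.

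Rgs4 and Rgs5 are likewise neighbours on chromosome 1. Rgs4 is an abundant regulator in cortical neurons and Rgs5 a well-known pericyte gene. The Rgs4 probe, A_55_P2026734, read -7.78, -7.60 and -7.45 on the knockdown arrays and -7.31, -7.58 and -7.90 on the control arrays. The Rgs5 probe, A_52_P136782, read -7.83, -7.64 and -7.60 on the knockdown arrays and -7.38, -7.62 and -7.95 on the control arrays. All these values lie below the lowest signal well above background of their arrays, so no difference is given for either gene.

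**Figure D2:**
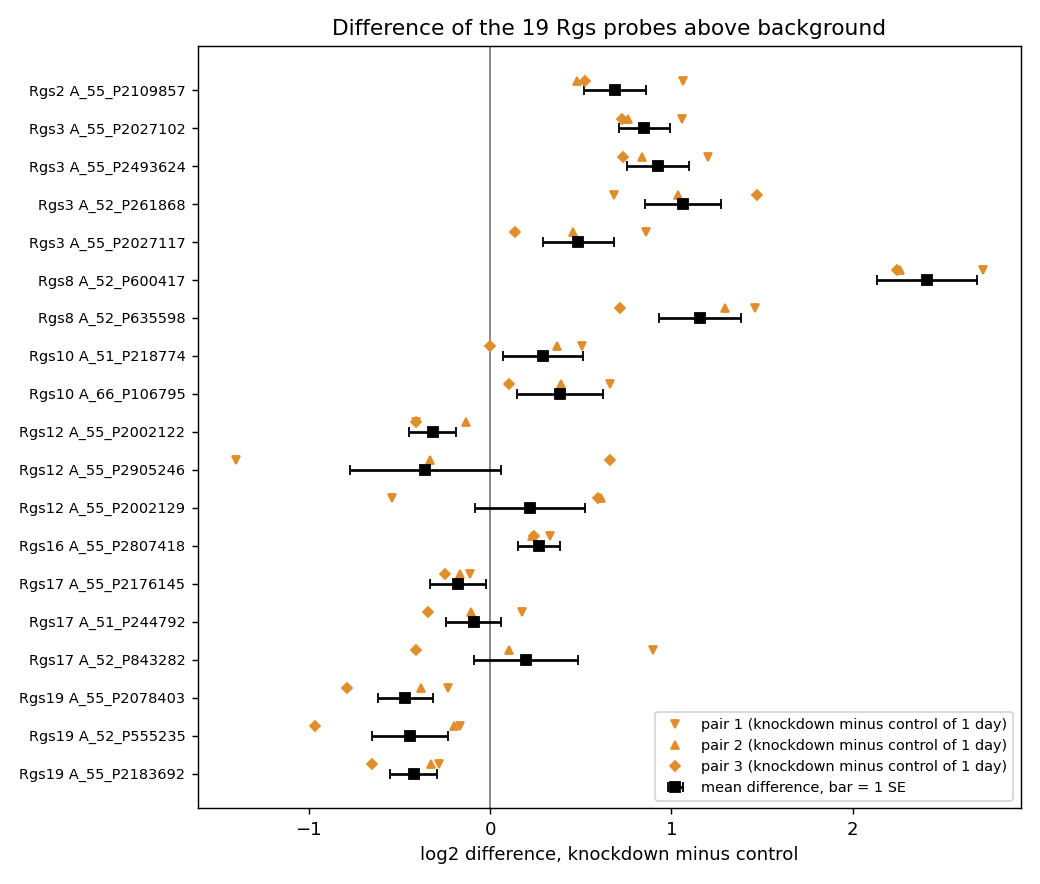
Log2 difference, knockdown minus control (x axis), of the 19 Rgs probes above background, 1 row a probe. Black squares are means with a bar of 1 SE, and orange marks are the 3 pairs of arrays that share a day; the 2 Rgs8 probes lie at 2.41 and 1.16, all 4 Rgs3 probes lie right of 0, and all 3 Rgs19 probes lie left of it.

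Rgs19, on chromosome 2, encodes GAIP, an RZ protein that acts on the Gi class. It is the member whose probes lay lowest in the knockdown. Probe A_55_P2078403 had levels of 2.99, 2.91 and 2.83 on the knockdown arrays and 3.22, 3.29 and 3.62 on the control arrays, a difference of -0.47 ± 0.15 (SE), or 72.4% of control. Probe A_52_P555235 had levels of 2.13, 1.94 and 1.91 on the knockdown arrays and 2.29, 2.14 and 2.87 on the control arrays, a difference of -0.44 ± 0.21 (SE). Probe A_55_P2183692 had levels of 1.29, 1.31 and 1.15 on the knockdown arrays and 1.58, 1.64 and 1.80 on the control arrays, a difference of -0.42 ± 0.13 (SE). The groups did not overlap at any of the 3 probes, and the 3 differences lay within 0.05 of one another. That closeness rests on control array 3: without it they were -0.34, -0.22 and -0.36, in the order above. The gene did not pass the threshold over all genes.

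Rgs17, on chromosome 10, encodes RGSZ2, the other RZ member. Its groups overlapped at all 3 probes. Probe A_55_P2176145 had levels of 2.50, 2.74 and 2.75 on the knockdown arrays and 2.62, 2.91 and 3.0 on the control arrays, a difference of -0.18 ± 0.16 (SE). The other probes differed by -0.09 ± 0.15 (A_51_P244792) and 0.20 ± 0.29 (A_52_P843282), both within about 1 SE of 0. Single arrays moved these small values by more than 1.5 times, over ranges of -0.29 to -0.09, -0.22 to 0.02 and 0.02 to 0.49 in the order above. The 95% interval of the first probe, -0.54 to 0.19, still allows a modest change in either direction.

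Rgs10, on chromosome 7, encodes a short R12 protein abundant in microglia. Probe A_51_P218774 had levels of 1.84, 2.04 and 2.14 on the knockdown arrays and 1.33, 1.68 and 2.14 on the control arrays, a difference of 0.29 ± 0.22 (SE; 95% interval -0.23 to 0.81). Probe A_66_P106795 had levels of 0.72, 0.89 and 1.06 on the knockdown arrays and 0.06, 0.50 and 0.95 on the control arrays, a difference of 0.39 ± 0.24 (SE). Control array 3 was as high as the highest knockdown array at the first probe and lay within the knockdown range at the second. Single arrays moved these values by more than 1.5 times: the first probe differed by 0.10 without control array 1 and by 0.50 without control array 3, and the second by 0.16 and 0.61.

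Rgs12, on chromosome 5, encodes a large R12 scaffold with domains beyond the RGS domain. Probe A_55_P2002122, used for the gene, had levels of 1.76, 1.99 and 1.72 on the knockdown arrays and 2.16, 2.12 and 2.12 on the control arrays, a difference of -0.32 ± 0.13 (SE) with no overlap. The other Rgs12 probes did not share that pattern. Probe A_55_P2905246 had levels of -2.07, -0.78 and -0.86 on the knockdown arrays and -0.67, -0.45 and -1.52 on the control arrays, a difference of -0.36 ± 0.42 (SE). Probe A_55_P2002129 had levels of -4.14, -3.13 and -3.75 on the knockdown arrays and -3.59, -3.74 and -4.34 on the control arrays, a difference of 0.22 ± 0.30 (SE). Both overlapped between groups, and their differences changed sign when knockdown array 1 (A_55_P2905246, to 0.06) or knockdown array 2 (A_55_P2002129, to -0.05) was left out.

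Among the 13 other genes named Rgs or as an Rgs-binding protein, 6 could be tested and 1 passed. Over all genes tested 7.41% passed, and the counts of this list and of the lists below stand beside that share. Rgs14, an R12 protein known from hippocampal area CA2, had levels of -0.12, -0.21 and -0.44 on the knockdown arrays and -1.18, -0.99 and -0.75 on the control arrays. It was 1.64-fold higher, by 0.71 ± 0.15 (SE; limma adjusted p = 0.0365), but did not pass with the day as a block (limma adjusted p = 0.0903). It also missed the threshold when any 1 array other than control array 3 was left out, at 0.65 without knockdown array 1. The remaining tested genes gave limma adjusted p-values of 0.160 (Rgs9bp, difference 0.90), 0.278 (Rgs21, -0.36), 0.313 (Rgs7bp, -0.33), 0.499 (Rgs11, -0.17) and 0.906 (Rgs20, 0.04). The Rgs9bp and Rgs7bp probes were above background on only 3 of the 6 arrays, and after normexp they differed by 0.07 and -0.12. Leaving out single arrays gave 0.56 to 1.12 for Rgs9bp, -0.53 to -0.19 for Rgs21, -0.46 to -0.16 for Rgs7bp, -0.27 to -0.09 for Rgs11 and -0.02 to 0.14 for Rgs20. Rgs1, Rgs6, Rgs7, Rgs9, Rgs13, Rgs18 and Rgs22 were not well above background on any array. Rgs2 opens a run of neighbours on chromosome 1, Rgs2, Rgs13, Rgs1, Rgs21 and Rgs18, with 0 protein-coding genes between each, of which Rgs2 and Rgs21 could be tested.

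The RGS domain also occurs in proteins outside the Rgs names, such as axins, sorting nexins, receptor kinases and some guanine nucleotide exchange factors. Of 15 such genes 13 were tested, 0 rose and 2 fell, with a median difference of -0.23 (-0.15 without knockdown array 3). Both that fell are exchange factors that act below the G12/13 class. Arhgef12 fell by 0.76 ± 0.13 (SE; limma adjusted p = 0.0186), although 1 of its 2 further probes differed by 0.21 and the other by -1.0, and it did not pass with the mean of its probes (-0.51). Arhgef11 fell by 0.58 ± 0.13 (SE; limma adjusted p = 0.0450) and did not pass with the day as a block (limma adjusted p = 0.0737). The count was 0 without control array 1, control array 2, knockdown array 2 or knockdown array 3, 1 without control array 3, and 3 without knockdown array 1.

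The alpha subunits are what RGS proteins act on. Of 16 listed, 11 were tested, and 1 passed: Gna11, an alpha subunit of the Gq class, had levels of 1.28, 1.52 and 1.16 on the knockdown arrays and 2.63, 2.71 and 2.74 on the control arrays. It fell to 38.7% of control, a difference of -1.37 ± 0.13 (SE; limma adjusted p = 0.00741), with groups far apart. It passed in every alternative except without control array 1, where its difference was -1.40 (limma adjusted p = 0.0515). The median difference of the 11 was 0.06, and -0.03 to 0.08 over the alternatives.

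Beta and gamma subunits form the partner that alpha releases. Of 17 listed, 13 were tested, 3 rose and 0 fell, and the list had a median difference of 0.39 beside 0.02 over all genes. That median was 0.14 after normexp, 0.24 without the filter on dim probes and 0.25 with the filter on all 6 arrays. Under quantile normalization 4 passed, with Gng5 added as lower. In the fit used here Gng5 differed by -0.53 ± 0.15 (SE, limma adjusted p = 0.0735) and did not pass. Gng8, a gamma subunit known from sensory neurons, rose 2.91-fold, by 1.54 ± 0.19 (SE; limma adjusted p = 0.0121). Gng2, a widely expressed gamma subunit, rose by 0.78 ± 0.15 (SE; limma adjusted p = 0.0287), and its second probe differed by 0.70. Gnb5, the beta subunit that pairs with the R7 RGS proteins, rose by 0.63 ± 0.15 (SE; limma adjusted p = 0.0493), with a second probe at 0.66. Of the 4 R7 genes, Rgs6, Rgs7 and Rgs9 were below background and Rgs11 did not pass. Gnb5 did not pass with the day as a block (limma adjusted p = 0.0800) or when any 1 of the 6 arrays was left out, and differed by 0.55 without knockdown array 1. The count was 0 without control array 1, control array 2 or knockdown array 3, and 1 without control array 3.

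Receptors stand upstream of the G proteins and effectors downstream of them. Of 71 receptors 33 were tested, with 2 higher, 3 lower and a median difference of -0.15. That median was -0.03 without the filter on dim probes, and -0.07, -0.06, -0.06 and -0.07 without knockdown array 1, control array 2, control array 3 and knockdown array 3. Gpr146, an orphan receptor, rose by 2.35 ± 0.35 (SE; limma adjusted p = 0.0143) and Cxcr4, the receptor of Cxcl12, by 0.95 ± 0.14 (SE; limma adjusted p = 0.0149). Ptger4, a prostaglandin E2 receptor, fell by 0.91 ± 0.16 (SE; limma adjusted p = 0.0214). After normexp Ptger4 differed by -0.39 and did not pass. P2ry2, a nucleotide receptor, fell by 0.84 ± 0.15 (SE; limma adjusted p = 0.0252), and F2r, the thrombin receptor, fell by 0.57 ± 0.12 (SE; limma adjusted p = 0.0355). With the day as a block the 3 that fell no longer passed, at limma adjusted p-values of 0.0624 (Ptger4), 0.0501 (P2ry2) and 0.0671 (F2r), while Lpar4, a receptor of lysophosphatidic acid, passed (limma adjusted p = 0.0372, difference 0.80). Of 38 genes of cyclic AMP and phospholipase C signalling 23 were tested, 0 rose and 1 fell, Adcy7, an adenylyl cyclase, by 0.79 ± 0.18 (SE; limma adjusted p = 0.0402). Of 9 further modulators, which include the arrestins, 8 were tested and 0 passed by limma, 1 at an unadjusted p below 0.05. Without knockdown array 1, Adcy7 (-0.78) and F2r (-0.49) did not pass, and without control array 1, control array 2 or knockdown array 3 none of these 6 genes did. Without control array 3, Cxcr4, Gpr146 and Ptger4 passed, and without knockdown array 2, Cxcr4, Gpr146 and P2ry2. The second probes of Gpr146 and Ptger4 were above background on 0 arrays, so each of these calls rests on 1 probe. The second Cxcr4 probe differed by 1.05.

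**Figure D3:**
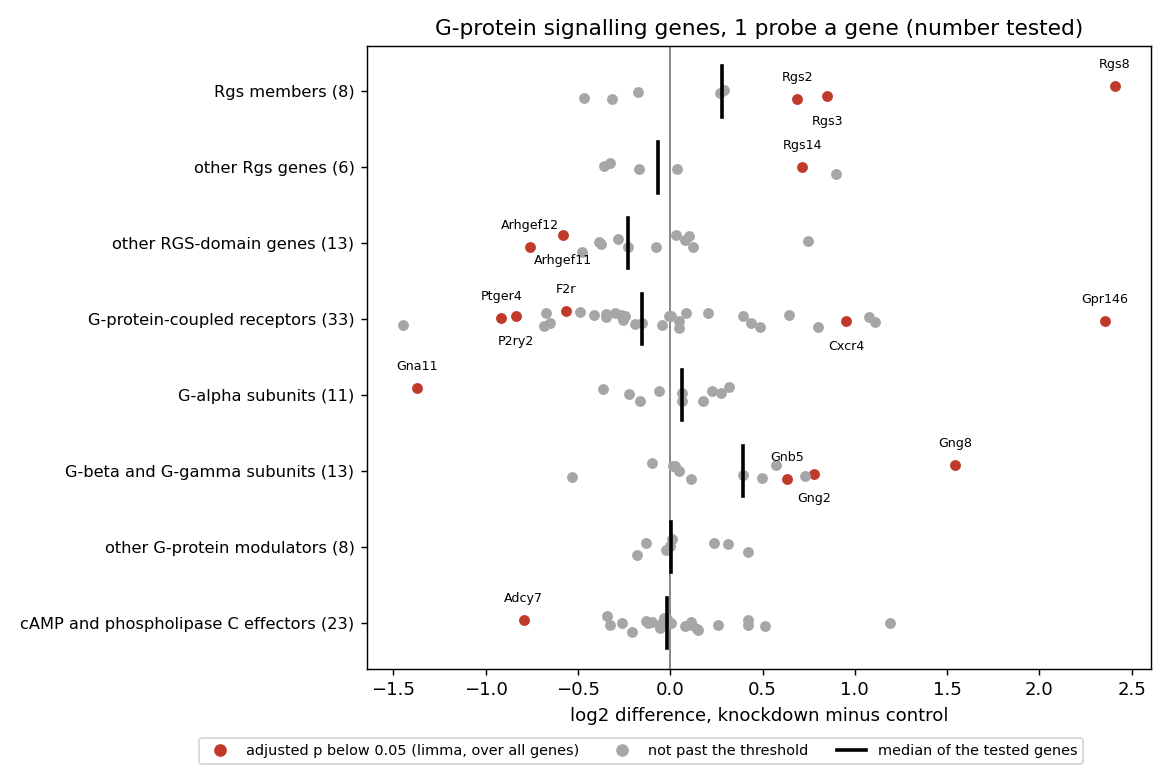
Log2 difference, knockdown minus control (x axis), of each tested gene of 8 lists of G-protein signalling, 1 row a list with the number tested in brackets. Red points passed an adjusted p below 0.05 over all genes and are named, grey points did not, and black bars are list medians; the members' median is 0.28 (0.17 without control array 1, 0.13 without the filter on dim probes) and that of the beta and gamma subunits 0.39 (0.14 after normexp).

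Genes nearest to a member across the 6 arrays were found by the root mean square (RMS) difference, each gene centred on its own mean. The search covered 12476 genes above background on all arrays, with symbols of clones, loci and predicted genes left out. All 6 values enter the measure, so genes with a like difference between groups come first, and it is a description. Nearest to Rgs8 was Oasl2, an interferon-stimulated gene, with an RMS difference of 0.13 log2 units and a knockdown minus control difference of 2.37. Then came Slc16a4, a transporter of the monocarboxylate family, with an RMS difference of 0.16, the receptor Gpr146 with 0.17, Ahsg, which encodes the plasma protein fetuin-A, with 0.21, and Trp53inp1, a p53 target, with 0.22. Their differences ran from 2.01 to 2.37. Nearest to Rgs2 were Dennd6a, Gpbp1l1, Spopfm2, Fuca2 and Lbx2, with RMS differences of 0.03 to 0.06. Nearest to Rgs3 were Msh5, Gadd45b, Tmem176b, Gstm3 and Armcx6, with RMS differences of 0.03 to 0.06. In all 3 genes knockdown array 1 was the highest of the 6 arrays.

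**Figure D4:**
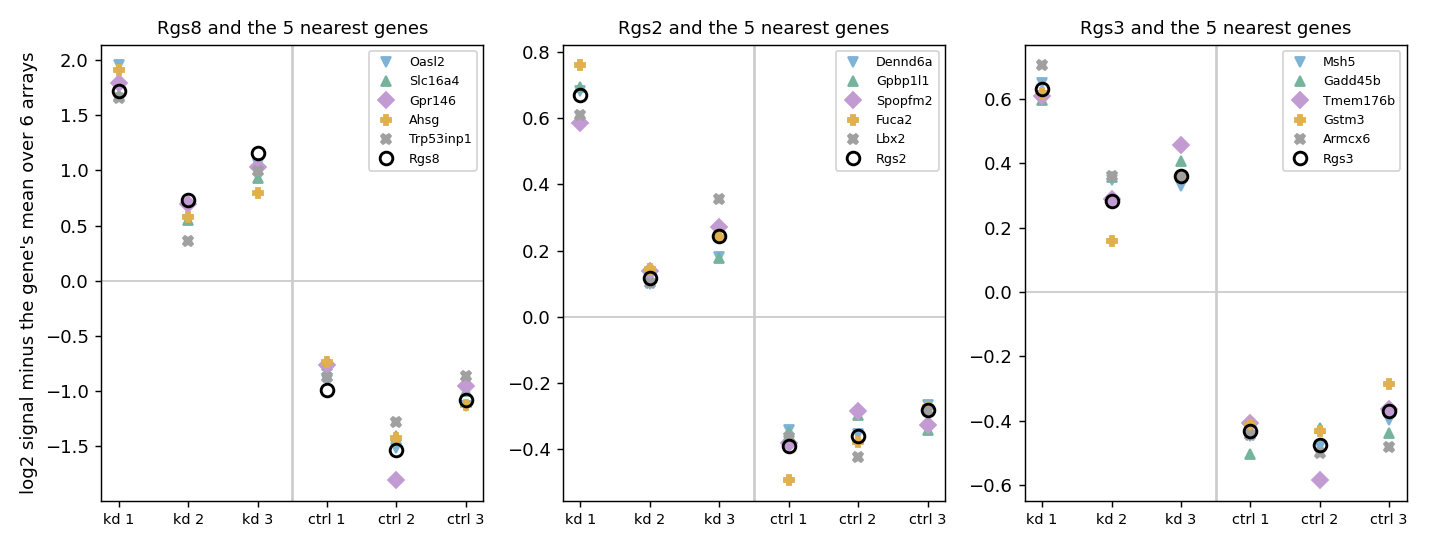
Level of Rgs8, Rgs2 and Rgs3 (open circles) and of the 5 genes nearest to each (coloured marks) on the 3 knockdown (kd) and 3 control (ctrl) arrays, each gene minus its own mean over the 6 arrays (y axis, log2; scales differ between panels). Knockdown array 1 is the highest array for all 3 Rgs genes, and control array 2 is the lowest for Rgs8.

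Several Rgs genes are known from cell types other than the labelled one, so marker lists were read beside them. Of 10 neural and glioma stem cell markers 7 were above background on all arrays (Nes, Sox2, Prom1, Msi1, Cd44, Vim and Fabp7), while Olig2, Fut4 and Pax6 were on none. These 7 had a median difference of -0.26, and 0 passed by limma. At an unadjusted p below 0.05 there were 3, Nes at -0.64, Sox2 at -0.34 and Prom1 at 1.03. For pericytes, 6 of 11 markers were above background on all arrays and Kcnj8, Abcc9 and Vtn on none, beside an Rgs5 below background. The summed pericyte marker signal, as a multiple of the array's 75th percentile and so weighted towards the brightest probes, was 90.4 to 108 in the knockdown and 89.2 to 113 in the control. For microglia, the cell type of Rgs10, 5 of 11 markers were above background on all arrays and Aif1, Cx3cr1, P2ry12, Ptprc, C1qa and Adgre1 on none, with Tmem119 past the threshold, higher, and sums of 13.2 to 15.7 in the knockdown and 12.3 to 18.5 in the control. For neurons, the best-known site of Rgs8 and Rgs4, 5 of 10 markers were above background on all arrays and Rbfox3, Dcx, Slc17a7 and Gad1 on none. The summed neuron marker signal was 39.6 to 62.9 in the knockdown and 65.3 to 88.9 in the control, carried by the brightest probe, Nefl (difference -0.63, limma adjusted p = 0.160). The 6 tested neuron markers had a median difference of 0.22, with Syn1 at 1.1, Map2 at 0.58, Syt1 at 0.34, Tubb3 at 0.10 and Snap25 at -0.25, and 0 passed by limma, 2 at an unadjusted p below 0.05. Astrocyte markers summed to 7.03 to 9.76 in the knockdown and 8.15 to 10.1 in the control, with 5 of 9 above background on all arrays, Slc1a2 on none, and Slc1a3 and S100b past the threshold, higher. Oligodendrocyte markers summed to 2.53 to 2.75 in the knockdown and 1.87 to 1.99 in the control, with 4 of 7 above background on all arrays, Cldn11 on none, and Mbp and Cnp past the threshold, higher. Endothelial markers summed to 3.39 to 4.58 in the knockdown and 7.01 to 8.69 in the control, with 3 of 8 above background on all arrays, Kdr, Tie1 and Cldn5 on none, and Flt1 past the threshold, lower. Flt1 carries that sum, while the other 2 tested endothelial markers differed by -0.06 (Pecam1) and 0.15 (Cdh5) and the list had a median difference of -0.06. Of these marker genes Flt1, Slc1a3 and Cnp did not pass with the day as a block. Whether the shifts of single marker genes have a part in the Rgs differences was not tested.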

How the data were processed

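Total RNA of the 6 samples was labelled with Cy3 and hybridised to 1-colour arrays. Spot intensity values, already corrected for background, were deposited by the authors as scanner output of Agilent Feature Extraction 11.0.1.1, per the file headers. The deposited value table holds log2 values by the authors: each column equals log2 of the processed signal minus 1 constant (9.05 to 9.75) within 0.01 for 100% of probes, with column medians of -4.47 to -4.22 and no centring of genes.

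From the scanner files, outlier spots were left out (12 of 56605 probes lost all spots on some array). Log2 values of a probe's spots were averaged, and each array's 75th percentile of these averages was subtracted. Over all non-control spots of an array, outliers included, the 75th percentile was 812 to 1373 intensity units. Accessions matched to a RefSeq table named 58.3% of probes. The table's assembly is not that of the array design, so it gave names and gene order only, while promoter coordinates are RefSeq's own. A probe was kept if well above background on 3 or more of the 6 arrays, and each gene was read from its probe of highest mean. Groups were compared by limma 3.58.1 (R 4.3.3, lmFit and eBayes, two-sided), with Benjamini-Hochberg adjustment over 14149 genes and a threshold of 0.05; a like fit over 31805 probes gave the members' SE. The fit was tested on simulated data. Python 3.11.15, pandas 2.3.3 and matplotlib 3.10.9 were also used.

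Arrays were grouped by their titles, which mark 3 shared days, so the numbers pair the samples. Deviations of paired arrays from their group means correlated at -0.03, 0.55 and -0.20 over genes. The day as a block, normexp (offset 50), quantile normalization, another percentile, other filters, the mean of probes, the deposited table and each array left out were tried. The members, lists and alternatives were chosen with earlier results of these data known. Named are all member probes, the tested other Rgs genes, list genes that passed, and the 5 nearest genes of each member that passed. Lpar4, Gng5, Snx13, Itpr2, Pde4a and marker genes are named outside this rule, after their values were seen. Untested Rgs genes are named only as below background. Normexp used the median spot signal, the one read from these files. Member protein sequences were not analysed here.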

Additional observations from a re-analysis of the deposited data

How the results depend on the processing

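Of 247 alternative values of the 19 member probes, 245 moved by less than the spread between replicates. Most of these could not do otherwise, so the count does not measure how firm the differences are. Leaving out 1 array cannot move a difference by that spread, and the filters and the block leave a probe's difference unchanged. For the 2 probes called in the probe fit, 0 values reversed. The values that moved further were those of the dim Rgs3 probe A_55_P2027117 (0.21) and the dimmer Rgs8 probe (0.56). Both came after normexp, and the cause was not tested. Signs were kept in all alternatives by 16 of the 19 probes, the exceptions being 2 Rgs12 probes and 1 Rgs17 probe, none past the threshold. Rgs2, Rgs3 and Rgs8 all passed with normexp, quantile normalization, the percentile over bright probes, the filter on all 6 arrays, the mean of probes and the deposited table; without a filter 2 passed.

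Leaving out single arrays gave 14 (without control array 1) to 838 (without knockdown array 1) genes past the threshold in all, 0 to 2 members, 0 to 1 other Rgs genes, 0 to 3 RGS-domain genes, 0 to 1 alpha subunits, 0 to 3 beta and gamma subunits, 0 to 0 modulators, 0 to 1 effectors and 0 to 7 receptors; these fits hold 5 arrays. Without a filter, which tests more and dimmer probes, 357 genes passed, with 0 other Rgs, 0 RGS-domain, 1 beta or gamma subunit, 0 effectors and 2 receptors. With the replicate block 558 genes passed, with 0 other Rgs, 1 RGS-domain gene and 3 receptors. RGS-domain calls fell to 1 under quantile normalization and to 1 with the mean of probes (Snx13, higher, in place of both exchange factors). Beta and gamma subunits gave 4 under quantile normalization (Gng5 added, lower). Effectors gave 2 under normexp (Itpr2 added), 2 with the percentile over bright probes and 2 with the filter on all 6 arrays (Pde4a added in both), and receptors gave 9 with that filter. The cause was not tested. Of the 13 named genes outside the members that passed, all 13 kept their direction in every alternative, and 7 passed with the block. The block changed no call of the members and named genes beyond Rgs2, Rgs14, Arhgef11, Gnb5, F2r, P2ry2, Ptger4, Lpar4 and the markers Flt1, Slc1a3 and Cnp. No scaling moved the median of all genes by more than 0.1.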
